A study of Mus musculus with 6 samples.

Results

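Chemokines and their receptors were read on 6 arrays of cultured embryonic mouse gut cells. The genes were taken by symbol: every Ccl, Cxcl, Ccr and Cxcr gene with a numbered name, and with them Cx3cl1, Xcl1 and Ackr3. Of 57 such symbols in the reference gene table, 47 had a probe set assigned to that gene alone, out of 12393 genes measured. They were 32 ligands and 15 receptors. The other 10, among them Ccl19, Ccl26 and Cxcl3, were not analysed here. The naming rule uses no measured value, though the family was picked with earlier results of these data known.

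The study asked, by its title, how the transcription factor BARX1 controls stomach smooth muscle development and gut rotation. Stomachs and intestines were taken from C57BL/6 embryos at day 13.5, digested with collagenase-dispase and trypsin to reduce the endoderm, and cultured for 3 days with 20% serum. There were 3 groups of 2 arrays, called biological replicates in the labels: control stomach, control intestine, and intestine of Rosa26+/Barx1;Bapx1+/Cre embryos, here called Barx1 intestine. Control embryos of both organs carried either Rosa26+/Barx1 or Bapx1+/Cre alone, and the labels do not say which was used for which array. In the third group Cre made from the Bapx1 locus switched on Barx1 in cells with a history of Bapx1 expression, which need not be every cell of the culture. The sources used here do not give litters or pooling of embryos, so p-values measure only the spread between these samples.

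Chemokines are small secreted or membrane-bound proteins that direct the movement of cells, and are grouped as CC, CXC, CX3C and C by the spacing of their cysteines. They act through receptors of the G-protein-coupled family, while atypical receptors such as ACKR3 bind chemokines and remove them without the usual G-protein signal. Several ligands, such as those of monocytes and neutrophils, are induced in fibroblasts and macrophages by inflammatory signals through NF-kappa B. Others, such as CXCL12, are made steadily by mesenchyme.

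Upstream sequences of 4 CXC ligands are shown because these genes differ in pattern: Cxcl1 and Cxcl2 are neighbours whose values diverged, Cxcl10 is the interferon-inducible ligand read above the dim range, and Cxcl12 moved opposite to Cxcl1. Each is the 250 bases before the transcription start in the RefSeq promoter table (GRCm38.p6), 5′ to 3′ on the gene's strand. Capitals mark matches, on either strand, to the NF-kappa B consensus, to the AP-1 motif TGANTCA, to the interferon-response motif (GAAA, any 2 bases, GAAA) and to TATAAA.
Cxcl1, chr5:90890995-90891244, plus strand: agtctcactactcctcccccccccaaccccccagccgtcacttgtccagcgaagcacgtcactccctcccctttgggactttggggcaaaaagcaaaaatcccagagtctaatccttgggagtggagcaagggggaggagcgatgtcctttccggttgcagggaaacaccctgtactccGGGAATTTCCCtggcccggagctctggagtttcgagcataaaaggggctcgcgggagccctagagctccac
Cxcl2, chr5:90903649-90903898, plus strand: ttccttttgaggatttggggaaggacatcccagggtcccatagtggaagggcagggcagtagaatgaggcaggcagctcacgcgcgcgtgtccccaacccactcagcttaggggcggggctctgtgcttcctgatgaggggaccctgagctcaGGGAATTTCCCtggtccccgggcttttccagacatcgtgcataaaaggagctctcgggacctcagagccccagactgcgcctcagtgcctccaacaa
Cxcl10, chr5:92348890-92349139, minus strand: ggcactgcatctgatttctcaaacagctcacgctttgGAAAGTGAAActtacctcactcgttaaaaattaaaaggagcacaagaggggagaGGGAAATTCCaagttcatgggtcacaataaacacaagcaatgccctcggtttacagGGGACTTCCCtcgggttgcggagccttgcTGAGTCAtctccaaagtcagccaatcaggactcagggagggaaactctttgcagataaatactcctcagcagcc
Cxcl12, chr6:117168285-117168534, plus strand: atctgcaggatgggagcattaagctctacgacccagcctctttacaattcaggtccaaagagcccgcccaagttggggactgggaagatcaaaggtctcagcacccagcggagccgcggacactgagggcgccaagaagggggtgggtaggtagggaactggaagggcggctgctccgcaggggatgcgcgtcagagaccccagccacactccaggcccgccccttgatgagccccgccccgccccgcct
Cxcl1 and Cxcl2 hold the same 11 bases, GGGAATTTCCC, where the NF-kappa B consensus matches on both strands in 2 overlapping frames, at -71 to -61 in Cxcl1 and -97 to -87 in Cxcl2 from the start. Cxcl10 holds 2 separate NF-kappa B matches, with 1 AP-1 match at -74 to -68 and 1 interferon-response match at -213 to -204, none of which overlap. The Cxcl12 window holds no match to the 4 motifs. The promoter table listed 34 of the 47 genes. An NF-kappa B match stood in 7 of their 38 windows (18.4%), against 3.9% of all 32851 windows of the same length. For the AP-1 motif the shares were 13.2% and 6.75%, for the interferon-response motif 5.26% and 2.98%, and for TATAAA 26.3% and 12.4%. Ccl2, Ccl7, Cxcl16 and Ccl24 were not among the 34.

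The 6 arrays had medians of 6.93 to 6.98 (log2). Barx1 read 9.82 and 9.79 in stomach, 5.13 and 4.93 in intestine, with 8.66 and 8.79 where it was switched on, so the arrays followed their labels. The mean of 10 smooth muscle and mesenchyme markers ran from 11.6 to 12.4 over the arrays. Macrophage and leukocyte markers, of which 20 were measured, were present on every array, at a mean log2 level of 8.27 and 7.96 in stomach, 8.65 and 9.60 in intestine, while Barx1 intestine gave 6.90 and 7.81, replicate 1 first. Of the 20, 1 fell in stomach against intestine (5%, against 8.09% of all genes), though 19 had negative differences (median -1.01). In Barx1 intestine against intestine 6 fell (30%, against 2.12% of all genes), and 19 had negative differences (median -1.85). Only Itgam lay at or below the lower quartile on any array. Endoderm epithelial markers (16 genes) had means of 6.79 and 7.49, 8.92 and 7.82, and 7.86 and 7.19 in the same order. Fewer cells of a type and less RNA per cell cannot be told apart in these cultures.

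A gene counted as read above the dim range when its mean in at least 1 group passed 4.76, the highest lower quartile of all probe sets on any array. Of the 47 genes, 31 did so (66%, against 79.7% of all genes), namely 27 of 32 ligands but only 4 of 15 receptors: Ccr1, Ccr6, Ccr10 and Ackr3. A level under that line was not shown to be above background.

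**Figure D1:**
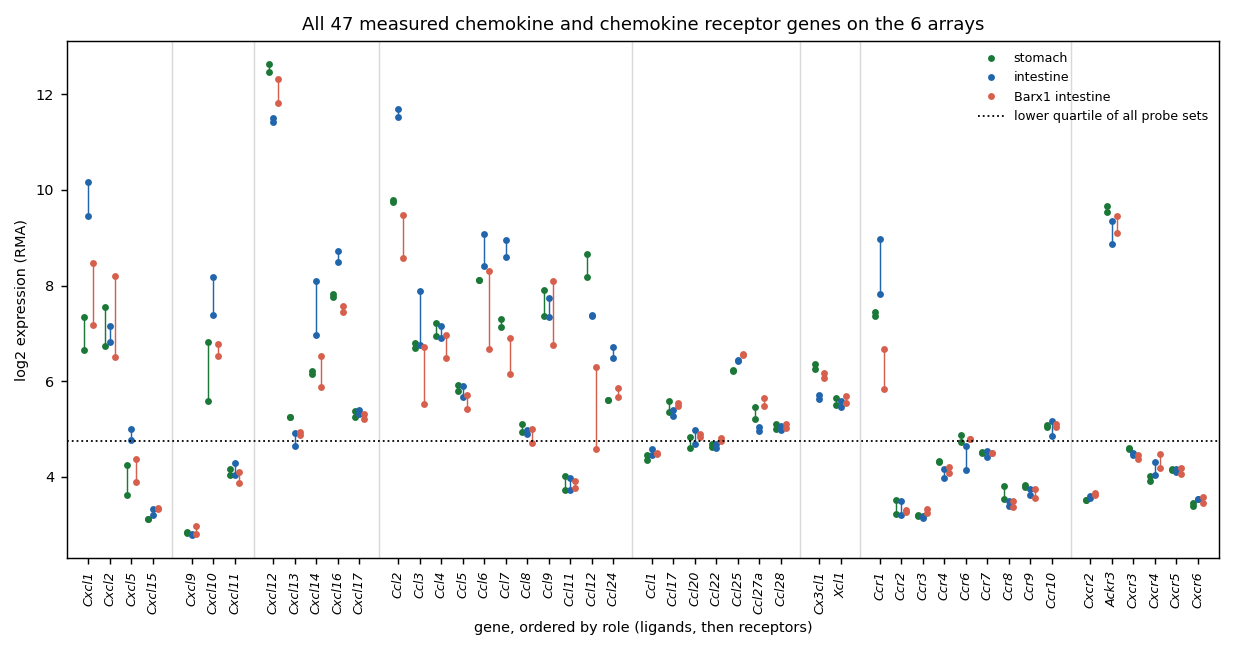
Log2 expression of each of the 47 genes (points, the 2 arrays of each group joined by a line), ordered by role from CXC ligands to receptors, with the lower quartile of 4.76 as a dotted line. Most receptors lie under the dotted line in every group, while Ccl2, Cxcl1 and Ccr1 are highest in intestine (blue) and Cxcl12 is lowest there. Heights of different genes are not comparable, since each probe set has its own response.

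All genes entered a limma fit of 3 group means, with Benjamini-Hochberg adjustment over the 12393 genes and a call at an adjusted p under 0.05. A log2 difference of 1 is a 2-fold change. In stomach against intestine 8 of the 47 genes passed (17%), against 16.9% of all genes: 3 rose (8.86% of all genes were called higher) and 5 fell (8.09% lower). In Barx1 intestine against intestine 5 passed (10.6%, against 3.98% of all genes), of which 1 rose (1.86% of all genes) and 4 fell (2.12%). In Barx1 intestine against stomach 2 passed (4.26%, against 5.2% of all genes), 1 higher (2.56%) and 1 lower (2.64%). The median difference of the 47 was 0.021, -0.014 and -0.017 in these comparisons, beside 0.019, 0.022 and -0.0008 over all genes. Differences of 1 or more occurred for 7, 10 and 2 of the 47 (14.9%, 21.3% and 4.26%), where 2.86%, 2.23% and 1.47% of all genes had them. Replicates of the 47 were also further apart than those of all genes. Their difference had an SD of 0.305, 0.373 and 0.546 in stomach, intestine and Barx1 intestine, beside 0.149, 0.232 and 0.199. The first pair of comparisons share the intestine arrays, and agreement between them is therefore not independent.

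**Figure D2:**
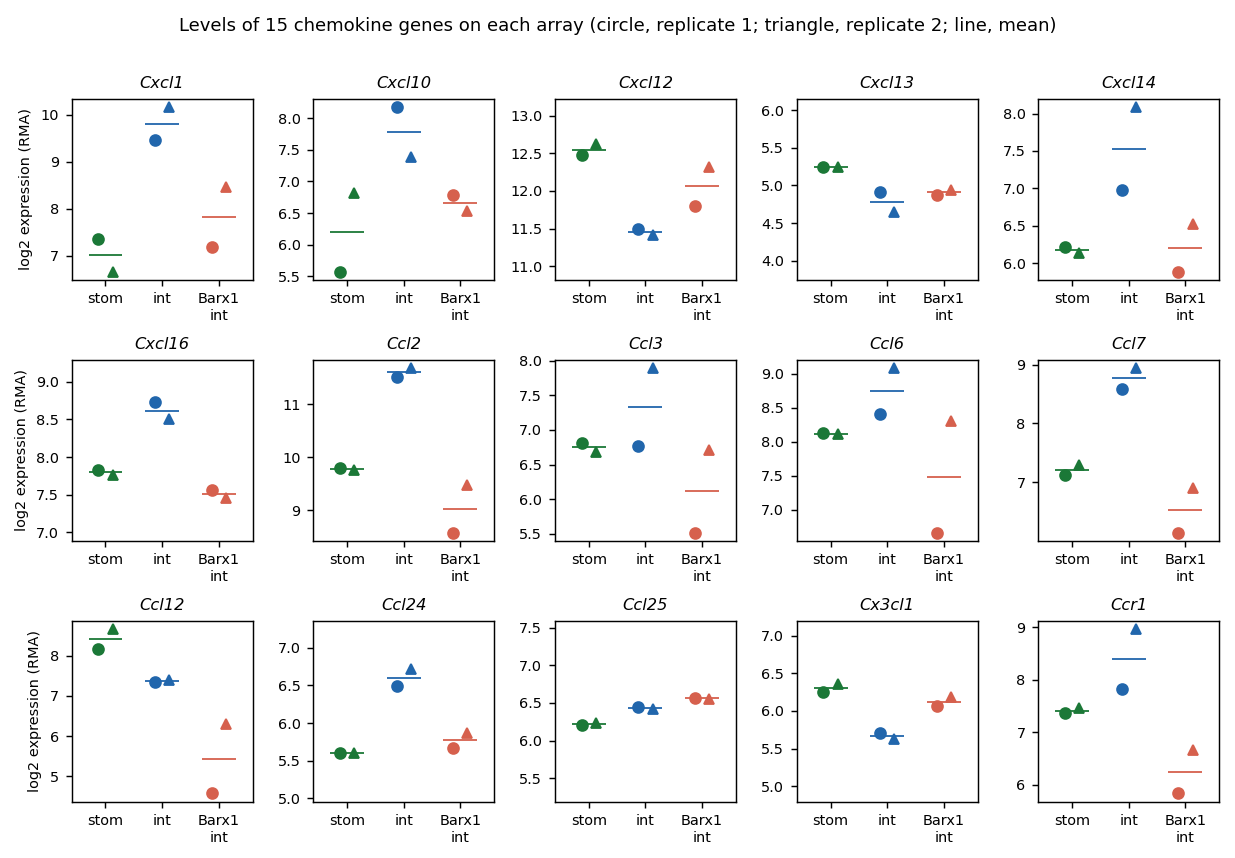
Log2 expression of the 15 genes that passed in any comparison or differed by 1 or more, on each array (circle, replicate 1; triangle, replicate 2; line, mean of 2), in stomach (green), intestine (blue) and Barx1 intestine (red). Both intestine arrays of Ccl2, Ccl7, Ccl24, Cxcl1 and Cxcl16 lie above all 4 other arrays, and Cxcl12 and Cx3cl1 show the reverse; vertical scales differ between panels.

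Among CC ligands of monocytes and eosinophils, Ccl2 and Ccl7 had the largest falls that passed in Barx1 intestine against intestine. Ccl2 encodes the chief monocyte attractant, and read 9.80 and 9.76 in stomach, 11.52 and 11.68 in intestine, while Barx1 intestine gave 8.58 and 9.48. Both intestine arrays lay above the rest, and both Barx1 intestine arrays lay below those of stomach. Against intestine Ccl2 fell in both groups, with differences of -1.83 in stomach (SE 0.28, adjusted p = 0.0135) and -2.57 in Barx1 intestine (SE 0.28, adjusted p = 0.0179), by limma with n = 2 per group. Barx1 intestine against stomach gave -0.74 (95% interval -1.44 to -0.05, adjusted p = 0.185), which was not called.

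Ccl7, a related monocyte attractant next to Ccl2 on chromosome 11, showed the same order. Its levels were 7.13 and 7.30 in stomach, 8.59 and 8.94 in intestine, against 6.14 and 6.90 in Barx1 intestine, with no overlap between groups. It fell, with differences of -1.55 in stomach (SE 0.26, adjusted p = 0.0174) and -2.24 in Barx1 intestine (SE 0.26, adjusted p = 0.0215). The mean of the macrophage markers was also highest on the intestine arrays and lowest on the Barx1 intestine arrays, although single markers such as Lyz2 and Cd14 were highest on Barx1 intestine replicate 2. Their part in these results was not tested.

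Ccl12 encodes, like Ccl2 and Ccl7, a ligand of the monocyte receptor CCR2. It was also lowest in Barx1 intestine, but its controls stood in the other order. It read 8.17 and 8.66 in stomach, 7.35 and 7.38 in intestine, while Barx1 intestine gave 4.58 and 6.30. Stomach was thus the highest group, whereas Ccl2 and Ccl7 were highest in intestine. Against stomach, Ccl12 fell in Barx1 intestine, with a difference of -2.98 (SE 0.54, adjusted p = 0.0433), the largest difference of the 47 genes in that comparison, and replicate 1 of Barx1 intestine lay in the dim range. That call ended in 5 of the 6 fits that left out 1 array (adjusted p from 0.0258 to 0.235) and was kept only without Barx1 intestine replicate 2. Against intestine its differences were 1.05 in stomach (adjusted p = 0.236) and -1.93 in Barx1 intestine (adjusted p = 0.108), without a call.

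Ccl24, an eosinophil attractant, gave close replicates: 5.60 and 5.60 in stomach, 6.49 and 6.71 in intestine, against 5.67 and 5.87 in Barx1 intestine. It fell, with differences of -0.9995 in stomach (SE 0.10, adjusted p = 0.00514) and -0.83 in Barx1 intestine (SE 0.10, adjusted p = 0.0225). The difference between Barx1 intestine and stomach was 0.17 (95% interval -0.09 to 0.42). Its receptor gene Ccr3 stayed in the dim range.

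The macrophage-made ligands Ccl3 and Ccl6 varied widely between replicates. Ccl3 read 6.81 and 6.69 in stomach, 6.77 and 7.89 in intestine, while Barx1 intestine gave 5.52 and 6.71. Ccl6 read 8.13 and 8.11, 8.40 and 9.08, and 6.67 and 8.31 in the same order. Their differences in Barx1 intestine against intestine, -1.22 and -1.25, missed the threshold (adjusted p = 0.216 and 0.233), with 95% intervals of -2.45 to 0.01 and -2.58 to 0.08. For both genes intestine replicate 2 was the highest array and Barx1 intestine replicate 1 the lowest, as for the mean of the macrophage markers. A second probe set of Ccl6 gave -1.28. The remaining 5 genes of this group, Ccl4, Ccl5, Ccl8, Ccl9 and Ccl11, differed by at most 0.36 in any comparison and were not called.

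**Figure D3:**
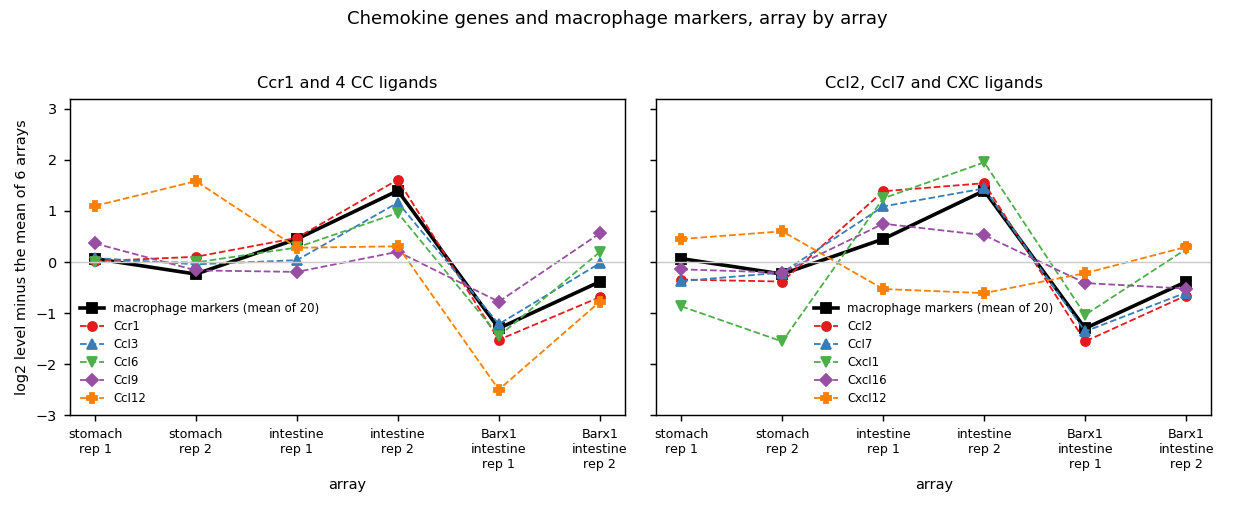
Log2 level on each array minus the mean of the 6 arrays, for the mean of 20 macrophage and leukocyte markers (black squares) and for 5 genes in each panel (coloured symbols). Ccr1, Ccl3, Ccl6, Ccl2 and Ccl7 peak with the markers on intestine replicate 2 and are lowest on Barx1 intestine replicate 1. Cxcl1 also peaks on intestine replicate 2 but is lowest on stomach replicate 2, and Ccl9 peaks on Barx1 intestine replicate 2. Ccl12 and Cxcl12 peak on stomach replicate 2, and Cxcl16 peaks on intestine replicate 1.

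Of the CXC ligands that attract neutrophils, Cxcl1 was lower in stomach. It read 7.35 and 6.66 in stomach, 9.46 and 10.16 in intestine, against 7.18 and 8.47 in Barx1 intestine. It fell in stomach, with a difference of -2.81 (SE 0.49, adjusted p = 0.0188), the largest difference of the 47 genes in that comparison. In Barx1 intestine its difference from intestine was -1.99 (95% interval -3.21 to -0.77), without overlap of the arrays but not called (adjusted p = 0.0859).

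Cxcl2, the adjacent gene with the same 11-base NF-kappa B match, read 7.55 and 6.73 in stomach, 6.81 and 7.16 in intestine, while Barx1 intestine gave 6.51 and 8.19. The groups overlapped, and its differences from intestine were 0.16 in stomach (95% interval -1.27 to 1.58) and 0.36 in Barx1 intestine (-1.06 to 1.78). Cxcl5 differed by -0.95 in stomach (adjusted p = 0.0556) and -0.75 in Barx1 intestine (adjusted p = 0.151), with 4 of its 6 values in the dim range. Cxcl15 was dim throughout, as was Cxcr2, the receptor gene for this group.

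Interferon-inducible CXC ligands attract activated T cells. Cxcl10 read 5.58 and 6.81 in stomach, 8.17 and 7.38 in intestine, against 6.79 and 6.53 in Barx1 intestine. Both intestine arrays were the highest, yet the stomach replicates were 1.24 apart. The mean of the endoderm epithelial markers was likewise highest on intestine replicate 1 and lowest on stomach replicate 1, and its part was not tested. The differences of Cxcl10 from intestine, -1.58 in stomach (adjusted p = 0.0670) and -1.12 in Barx1 intestine (adjusted p = 0.212), did not pass by limma. Cxcl9 and Cxcl11 lay in the dim range on all arrays (2.79 to 4.30). RefSeq lists Cxcl11 as a transcribed pseudogene, although it was counted here among the ligands by its symbol.

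Cxcl12, the mesenchymal ligand of CXCR4 that guides migrating progenitors and vessels, was highest in stomach. Its levels were 12.47 and 12.63 in stomach, 11.50 and 11.42 in intestine, while Barx1 intestine gave 11.81 and 12.32. It rose in stomach against intestine by 1.09 (SE 0.17, adjusted p = 0.0143). Barx1 intestine lay between the controls without overlap, 0.61 above intestine (95% interval 0.18 to 1.03, adjusted p = 0.110) and -0.49 from stomach (adjusted p = 0.164), neither called. A second probe set gave 1.59, 0.91 and -0.69 for the same contrasts. Of the 10 smooth muscle and mesenchyme markers, 4 rose in stomach against intestine (40%, against 8.86% of all genes). They were Col1a2 (1.98), Pdgfra (1.63), Col1a1 (0.72) and Cnn1 (0.34). In Barx1 intestine against stomach 4 fell (40%, against 2.64% of all genes). In Barx1 intestine against intestine 0 were called, and 8 had negative and 2 positive differences (median -0.15). The smallest adjusted p there was 0.0505 by limma, for Des (-0.75). The part of these markers in the Cxcl12 values was not tested.

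Cxcl16, made as a membrane-bound ligand of CXCR6, went the other way. It read 7.83 and 7.77 in stomach, 8.73 and 8.50 in intestine, against 7.56 and 7.45 in Barx1 intestine. It fell, with differences of -0.81 in stomach (SE 0.09, adjusted p = 0.00685) and -1.10 in Barx1 intestine (SE 0.09, adjusted p = 0.0103). Its second probe set differed by -1.23 and -1.49.

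Cxcl13, a B-cell attractant, read 5.24 and 5.25 in stomach, 4.92 and 4.65 in intestine, while Barx1 intestine gave 4.87 and 4.95. Its rise in stomach was 0.46 (SE 0.10, adjusted p = 0.0322), from an intestine level close to the dim range. Cxcl14 read 6.22 and 6.14 in stomach, 6.97 and 8.08 in intestine, against 5.89 and 6.53 in Barx1 intestine. The intestine arrays stood above all others but 1.11 apart, and differences of -1.35 and -1.32 were not called (adjusted p = 0.0687 and 0.119). Each passed in 1 of the 6 limma fits without 1 array (lowest adjusted p 0.0242 and 0.0412). Its second probe set gave -0.42 and -0.53. Cxcl17 differed by at most 0.096.

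**Figure D4:**
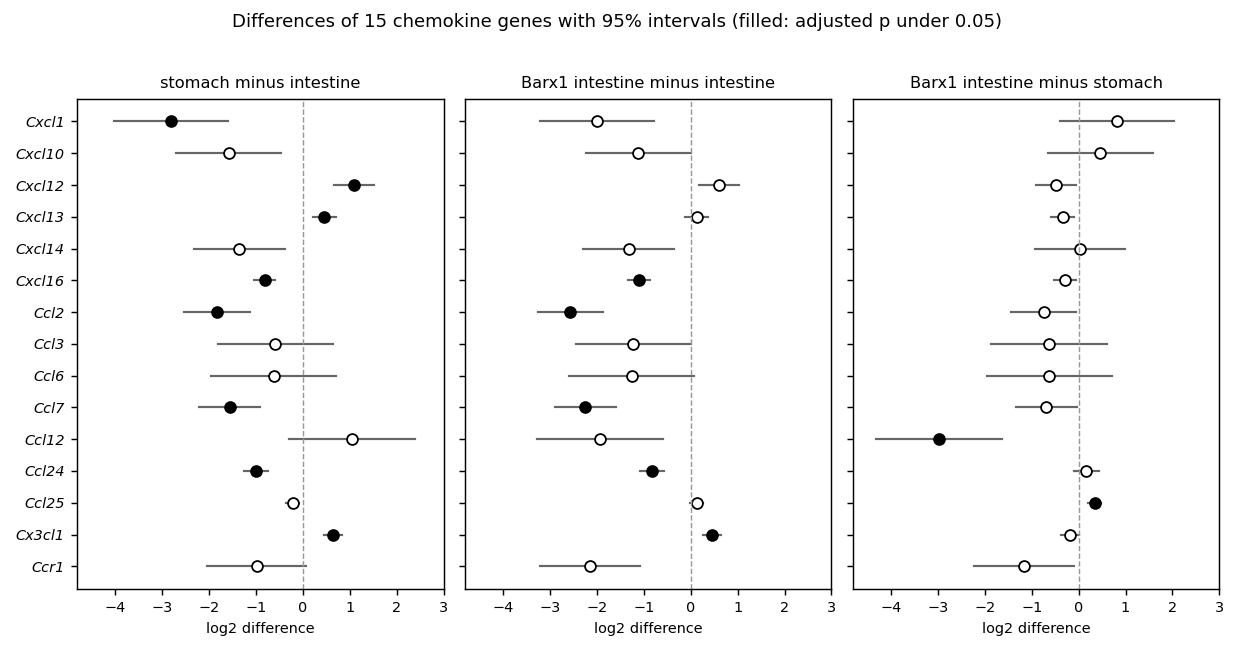
Log2 differences of the 15 genes in the 3 comparisons (points) with their 95% intervals from the limma fit (lines); filled points passed at an adjusted p under 0.05. Ccl2, Ccl7, Ccl24 and Cxcl16 lie left of 0 with filled points in the left and middle panels, Cx3cl1 lies right of 0 there, and in the right panel only Ccl12 and Ccl25 are filled.

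Cx3cl1 encodes fractalkine, a membrane-tethered ligand for CX3CR1 on macrophages. It read 6.26 and 6.36 in stomach, 5.71 and 5.63 in intestine, while Barx1 intestine gave 6.07 and 6.18, so the intestine was lowest. It rose by 0.64 in stomach (SE 0.07, adjusted p = 0.00692) and by 0.46 in Barx1 intestine (SE 0.07, adjusted p = 0.0412). The other probe sets of Cx3cl1 gave differences of -0.0013 to 0.072 from intestine, and with the mean of its probe sets the differences became 0.25 in stomach (adjusted p = 0.0449) and 0.17 in Barx1 intestine, where the call ended (adjusted p = 0.177).

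Other CC ligands changed little. Ccl25, which the gut epithelium makes for CCR9-bearing lymphocytes, read 6.21 and 6.24 in stomach, 6.44 and 6.42 in intestine, against 6.57 and 6.56 in Barx1 intestine. The groups did not overlap although the whole range was small. It rose in Barx1 intestine against stomach by 0.34 (SE 0.05, adjusted p = 0.0338). Ccl27a, a skin-type ligand, missed the threshold in Barx1 intestine against intestine at 0.57 (adjusted p = 0.0512). It passed there with median centring, a variance trend, a second quantile normalization, averaged probe sets or the replicate block, and in stomach against intestine (0.33, adjusted p = 0.0881) with median centring or the block. The other 5 genes of this group, with Xcl1, read 4.36 to 5.68 and none passed.

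Among receptors, Ccr1, which binds CCL3, CCL5, CCL6 and CCL9 and is carried by macrophages, had the widest differences. It read 7.37 and 7.46 in stomach, 7.83 and 8.97 in intestine, while Barx1 intestine gave 5.83 and 6.67, without overlap between groups. Its difference of -2.15 in Barx1 intestine against intestine (SE 0.43, 95% interval -3.21 to -1.08) missed the threshold at an adjusted p of 0.0573. It passed with median centring (0.0490), among genes brighter than the array median (0.0376), with a variance trend (0.0264), with its probe sets averaged (0.0421) or with the replicate block (0.0411). It did so in 1 of 6 limma fits without 1 array, that without intestine replicate 1 (range 0.0334 to 0.206). Barx1 intestine differed from stomach by -1.16 (adjusted p = 0.178). Its highest array, intestine replicate 2, and its lowest, Barx1 intestine replicate 1, were also those of the mean macrophage marker level, whose part was not tested.

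Ackr3, the scavenger of CXCL12, read 9.66 and 9.53 in stomach, 9.35 and 8.86 in intestine, against 9.46 and 9.10 in Barx1 intestine. Its difference of 0.49 in stomach against intestine was not called (adjusted p = 0.145). Cxcr4, the signalling receptor for CXCL12, was dim, with a highest value of 4.47. Ccr2, the receptor of CCL2, CCL7 and CCL12, read 3.19 to 3.52, also dim. The receptors Cxcr3, Cxcr5, Cxcr6, Ccr4, Ccr7, Ccr8 and Ccr9 were dim as well, and Ccr10 stood just above the line. Ccr6 passed the line only in its stomach and Barx1 intestine means, and read 4.15 and 4.64 in intestine. None of these receptors was called in any comparison in the main settings.

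Calls rested on few arrays. Over all genes, too, each fit without 1 array gave fewer calls in both comparisons with intestine. Most chemokine calls in these comparisons were kept without intestine replicate 1. In stomach against intestine most were also kept without either Barx1 intestine array. In stomach against intestine only Cx3cl1 and Ccl24 kept their calls without stomach replicate 1, and no call was kept without stomach replicate 2. Without intestine replicate 2 the calls of Cx3cl1, Ccl24 and Cxcl16 were kept. Ccr6 passed there too, though it was not called in the main settings. Ccl2, Ccl7, Cxcl1 and Cxcl12 lost their calls without either stomach array or intestine replicate 2, with adjusted p values up to 0.0926, 0.104, 0.112 and 0.0977. Cxcl16 lost it without either stomach array (up to 0.0617), Ccl24 (0.0520) and Cx3cl1 (0.0616) without stomach replicate 2, and Cxcl13 in 5 of 6 such limma fits, kept only without intestine replicate 1 (0.0203 to 0.155). In Barx1 intestine against intestine 0 passed without either stomach array, which entered only through the spread, though 13 had an unadjusted p under 0.05. In that comparison only Cxcl16 kept its call without intestine replicate 2, and only Ccl2 without Barx1 intestine replicate 1. Without Barx1 intestine replicate 2 only Ccl2 and Ccl7 kept theirs, and Ccl12 passed though not called there in the main settings. Over the 6 limma fits the adjusted p ran from 0.00632 to 0.0639 for Ccl2, 0.0309 to 0.0678 for Ccl7, 0.0144 to 0.0636 for Cxcl16, 0.0246 to 0.117 for Ccl24 and 0.0692 to 0.128 for Cx3cl1. In Barx1 intestine against stomach 0 passed without stomach replicate 1, stomach replicate 2 or Barx1 intestine replicate 1, where 3, 4 and 10 had an unadjusted p under 0.05 by limma, and 1 passed without either intestine array. There Ccl25 lost its call without either array of those groups (up to 0.204). These differences kept their direction in every such fit.

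Chemokine family genes that lie outside the naming rule were read as well. Cx3cr1, the receptor of fractalkine, had means of 7.45 in stomach, 8.46 in intestine, against 6.80 for Barx1 intestine, and no group overlapped another. It fell in Barx1 intestine against intestine, at -1.66 (SE 0.29, adjusted p = 0.0446), opposite in sign to its ligand Cx3cl1. Ppbp, a neutrophil attractant in the Cxcl1 gene run, fell in stomach, at -1.90 (SE 0.41, adjusted p = 0.0334), and its difference of -1.79 in Barx1 intestine was not called. Pf4 differed by -2.25 in Barx1 intestine (adjusted p = 0.0627 by limma). Cx3cr1 and Pf4 were highest on intestine replicate 2 and lowest on Barx1 intestine replicate 1. The mean of the macrophage markers had the same highest and lowest arrays, and its part was not tested. Of 8 such genes, 1 fell and 0 rose in each comparison with intestine. That is 12.5%, against 8.09% of all genes in stomach and 2.12% in Barx1 intestine.

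Of 34 measured inducers and partners of the NF-kappa B pathway, 1 rose (2.94%, against 8.86% of all genes) and 11 fell (32.4%, against 8.09%) in stomach against intestine, with a median of -0.25. The smallest p values there were those of Ptgs2 (-0.79), Csf3 (-1.38), Tlr3 (-0.97) and Csf1 (-0.64). The gene that rose was Vcam1 (1.07), named after its value was seen. In Barx1 intestine against intestine 0 rose and 4 fell (11.8%, against 2.12% of all genes), with a median of -0.24. They were Icam1 (-0.65), Csf3 (-0.80), Il1a (-1.43) and Il6 (-0.89). Other cytokines of the list were not called there, among them Tnf (-0.08), Il1b (0.30), Csf1 (-0.08), Csf2, Il33 and Lif. Against stomach, 3 rose in Barx1 intestine (8.82%, against 2.56% of all genes) and 0 fell, namely Ptgs2 (0.53), Csf1 (0.56) and Tlr3 (0.57).

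Of 18 interferon response genes, 1 rose in stomach against intestine (5.56%, against 8.86% of all genes), namely Iigp1 (0.57). In that comparison 3 fell (16.7%, against 8.09% of all genes). Barx1 intestine had 0 higher and 3 that fell against intestine (16.7%, against 2.12%), namely Psmb8 (-1.63), Irf8 (-1.47) and Gbp2 (-1.02). Among 25 measured genes that carry the signal of chemokine receptors, 1 rose (4%, against 8.86% of all genes) and 3 fell (12%, against 8.09%) in stomach against intestine, which is near the background. Arrb1, a beta-arrestin that uncouples receptors, was the gene that fell in Barx1 intestine against intestine (-0.60; 4%, against 2.12%). The median difference of these signalling genes was -0.055 and -0.12. The mean of the macrophage markers was lower in the same groups, and their part in these counts was not tested.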

How the data were processed

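RNA from 6 cultures was hybridised to Affymetrix 3′ arrays of 22690 probe sets. The deposited values are log2 expression made by the authors with RMA, per the submitters' processing notes; its version is not given in the sources used here, and the log2 scale was read from the values. RMA equalises the distributions of the arrays, so a change shared by most genes would not show. Arrays have no read depth, and their number limits precision. Gene names came from the platform annotation; 20380 probe sets named 1 gene, 691 several and 1555 none, besides 64 controls. Where a gene had several probe sets, the brightest on average stood for it.

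All 6 arrays entered a fit of 3 group means with limma 3.58.1 in R 4.3.3, with 3 residual and 2.58 prior degrees of freedom. Adjusted p values are Benjamini-Hochberg over 12393 genes, SE is the moderated error and intervals are at 95%. The script was tested on simulated data. Genes named in full passed in any comparison or differed by 1 or more above the dim range; pathway examples are up to 4 genes with the smallest p in a comparison, and other list genes were named after their values were seen. The chemokine genes and lists were chosen with earlier results of these data known. RefSeq (GRCm38.p6) gave promoter sequences and gene order. Alternatives covered dim genes, scaling, probe sets, variance trend, a fit of the compared groups alone, replicate block, left-out arrays and the threshold; crossed replicate numbers were added after seeing the data.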

Additional observations from a re-analysis of the deposited data

How the results depend on the processing

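Counts are of genes passing by limma, in the order stomach against intestine, Barx1 intestine against intestine, Barx1 intestine against stomach. For the 47 chemokine genes they were 8, 5 and 2. At an adjusted p under 0.1 they became 13 and 8 in the comparisons with intestine. With a variance trend they were 8 in Barx1 intestine against intestine and 1 against stomach. A fit of the compared groups alone gave 0 in Barx1 intestine against intestine (13 at an unadjusted p under 0.05) and 1 against stomach, as did the limit to bright genes against stomach (1). Leaving out 1 array gave 0 to 9, 0 to 6 and 0 to 2. Over all genes the counts were 2100, 493 and 644. They were 3310, 1316 and 1516 at the wider threshold. In the comparisons of Barx1 intestine they were 896 and 1216 among bright genes and 1037 and 1189 with a variance trend. A fit of Barx1 intestine and intestine alone gave 50. Leaving out 1 array gave 281 to 1692, 50 to 466 and 0 to 727. Median centring changed the split in stomach against intestine from 1098 higher and 1002 lower to 1394 and 814, and reversed no difference of the 15 named genes.

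The replicate numbers share only a number: deviations of same-numbered arrays correlated at -0.22, 0.20 and -0.061 across genes. With the replicate block 8, 6 and 1 chemokine genes and 1508, 267 and 337 of all genes passed. The block ended the calls of Cxcl13 in stomach and Cx3cl1 in Barx1 intestine against intestine, and of Ccl25 against stomach. It added Ccl27a in both comparisons with intestine and Ccr1 in Barx1 intestine. Crossed numbers gave 11 chemokine genes and 1879 of all genes in stomach against intestine.

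Signs reversed only for differences that were not called in the main settings. Barx1 intestine differed from stomach in Cxcl14 by 0.026, by -0.042 with the mean of its probe sets, and by -0.29 to 0.34 over the fits without 1 array (-0.014 without stomach replicate 2). There Cxcl10 ran from -0.16 to 1.08 and Ccl6 from -1.45 to 0.19 over those fits. Cxcl13 in Barx1 intestine against intestine ran from -0.0077 to 0.26. Among bright genes Cxcl10 and Cxcl14 passed in stomach against intestine (adjusted p = 0.0467 and 0.0477 by limma). With 2 arrays a group, a missed threshold does not show that a chemokine gene did not differ.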

Other observations

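Neighbouring chemokine genes did not all share 1 pattern. In the run Ccl2, Ccl7, Ccl11, Ccl12, Ccl8, Ccl1 on chromosome 11 (protein-coding genes in RefSeq order), the difference of stomach from intestine was -1.83, -1.55, 0.012, 1.05, 0.092 and -0.11, and that of Barx1 intestine from intestine was -2.57, -2.24, -0.0052, -1.93, -0.079 and -0.030. Ccl11 and Ccl1 were dim. In the run Cxcl5, Ppbp, Pf4, Cxcl3, Cxcl15, Cxcl1, Cxcl2 on chromosome 5, Cxcl3 was not analysed here and Cxcl15 was dim. For the other genes in that order, stomach differed from intestine by -0.95, -1.90, -1.12, -2.81 and 0.16. Barx1 intestine differed from intestine by -0.75, -1.79, -2.25, -1.99 and 0.36. Only Ppbp and Cxcl1 passed, in stomach. Of these genes Cxcl2 alone had no negative difference, and its limma interval in stomach was wide (-1.27 to 1.58). Cx3cl1 lies between Ccl22 and Ccl17 on chromosome 8, which differed by 0.0068 and 0.13 in stomach, beside 0.64 for Cx3cl1.

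Replicates of Barx1 intestine were far apart for several chemokine genes. Replicate 2 exceeded replicate 1 by 1.72 for Ccl12, 1.68 for Cxcl2, 1.64 for Ccl6, 1.34 for Ccl9, 1.29 for Cxcl1 and 1.19 for Ccl3. These 6 of 47 genes were 12.8%, where 0.428% of all genes had replicates 1 or more apart in this group. In stomach 1 gene was that far apart (Cxcl10, 1.24), which is 2.13%, against 0.137% of all genes. In intestine 3 genes were (Cxcl14, Ccl3 and Ccr1, 1.11 to 1.14), or 6.38%, against 0.904% of all genes. Over the 47 genes the replicate difference had an SD of 0.305 (stomach), 0.373 (intestine) and 0.546 (Barx1 intestine), beside 0.149, 0.232 and 0.199 over all genes. For Cxcl2, Ccl6 and Ccl9 the gap between the single arrays of Barx1 intestine exceeded every difference between group means, each a mean of 2 arrays. Macrophage marker means differed by 0.91 between the same arrays.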
